A study of Mus musculus with 16 samples.

Results

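The 10 nuclear genes described here encode factors that copy, transcribe and translate mitochondrial DNA: Tfam, Polrmt, Tfb1m, Tfb2m, Lrpprc, Slirp, Tufm, Tsfm, Gfm1 and Polg. They were taken by symbol from the 43472 gene symbols of the count tables by a rule that uses no measured value, although earlier results of these data were known when it was set, and all 10 were found. Mouse brain RNA was sequenced in 4 groups of 4 samples, 16 libraries in all. Brains of mice lacking Prepl, the gene of a prolyl endopeptidase-like serine hydrolase, were set against wild types kept as their controls. Brains of mice with a deleted PWS-IC, which sets the imprint of the Prader-Willi locus, were set against a separate group of wild types. The labels give genotype and tissue. Neither strain nor age nor the design of the alleles is stated there. The labels do not say whether replicates are different animals, so a p-value covers only sample-to-sample spread, which may be technical in part; by the sex read from the data, described below, 3 of the 4 groups hold more than 1 animal. The models stand for a congenital myasthenic syndrome and for Prader-Willi syndrome, whose molecular likeness the study examined.

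Mitochondrial DNA encodes a few subunits of the respiratory chain together with the RNAs needed to make them, while every protein that reads it is encoded in the nucleus and imported. Polrmt, the mitochondrial RNA polymerase, starts transcription with Tfam, which bends and packages the DNA, and Tfb2m, which opens the promoter. Lrpprc and Slirp form a complex that binds and stabilises the mitochondrial mRNAs, and Tufm, Tsfm and Gfm1 are elongation factors of the mitochondrial ribosome. In brain, as in other tissues with a high demand for ATP, loss of several of these factors causes encephalopathy, and inherited LRPPRC defects cause a form of Leigh syndrome.

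In neither mutant was any of the 10 genes called as changed. Of all genes tested 0.262% were called in the Prepl knockout and 4.51% in the PWS-IC deleted brain. At such shares a count of 0 among 10 genes does not set them apart. Of the 13 mRNAs encoded in mitochondrial DNA, 6 were called higher in the Prepl knockout, where 0.189% of all genes were. Sex was not balanced in that comparison, as described below, and its part in this count is not settled. In the PWS-IC deleted brain 10 of the 13 were called lower, where 1.55% of all genes were. Most of the 13 mRNAs have far more reads than the 10 genes, and their difference from the 10 was not tested. The largest differences among the 10 lay between the groups of wild types: Lrpprc was at 99.1 ± 14.1 CPM (SD, n = 4) in the wild types of the Prepl comparison and at 37.4 ± 3.78 CPM in those of the PWS-IC comparison. CPM is the number of reads of a gene per 1000000 reads in genes of that library. The libraries were made with a kit that reads the poly(A) end of each transcript, so a count does not grow with transcript length and levels of different genes were set side by side without a length correction.

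The reference promoters of 4 members are shown, from 250 bases before to 50 bases after the annotated start. These genes either carry the elements through which nuclear respiratory factors are known to act or differ most between the samples. Slirp, Tufm, Gfm1 and Polg also carry such an element and are not shown. The windows are RefSeq sequences of GRCm38.p6, the assembly that the build named for these data denotes, each written 5′ to 3′ on the strand of the gene. Capitals mark TGCGCA, the core string repeated in the NRF1 element, and CCGGAAG, an ETS element that GABP (NRF2) binds, on either strand. Tfam lies at chr10:71237995-71238294, Polrmt at chr10:79746532-79746831, Tfb2m at chr1:179546227-179546526 and Lrpprc at chr17:84790737-84791036, all on the minus strand.
Tfam: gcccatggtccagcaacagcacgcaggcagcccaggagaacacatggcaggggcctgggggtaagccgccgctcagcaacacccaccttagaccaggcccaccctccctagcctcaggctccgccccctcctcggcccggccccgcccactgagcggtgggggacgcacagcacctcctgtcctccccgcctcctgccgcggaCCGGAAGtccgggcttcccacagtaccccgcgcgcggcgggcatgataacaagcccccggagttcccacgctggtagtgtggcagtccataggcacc
Polrmt: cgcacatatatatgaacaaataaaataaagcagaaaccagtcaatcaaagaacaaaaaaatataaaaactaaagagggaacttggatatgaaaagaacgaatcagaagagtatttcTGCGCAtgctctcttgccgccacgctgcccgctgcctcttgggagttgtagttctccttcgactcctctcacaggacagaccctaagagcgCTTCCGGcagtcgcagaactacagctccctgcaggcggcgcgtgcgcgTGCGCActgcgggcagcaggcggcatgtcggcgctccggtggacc
Tfb2m: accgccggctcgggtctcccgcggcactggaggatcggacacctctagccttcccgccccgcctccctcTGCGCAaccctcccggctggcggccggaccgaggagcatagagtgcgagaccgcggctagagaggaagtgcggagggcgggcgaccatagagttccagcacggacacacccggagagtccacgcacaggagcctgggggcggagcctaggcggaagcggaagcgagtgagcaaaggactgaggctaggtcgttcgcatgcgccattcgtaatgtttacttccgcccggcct
Lrpprc: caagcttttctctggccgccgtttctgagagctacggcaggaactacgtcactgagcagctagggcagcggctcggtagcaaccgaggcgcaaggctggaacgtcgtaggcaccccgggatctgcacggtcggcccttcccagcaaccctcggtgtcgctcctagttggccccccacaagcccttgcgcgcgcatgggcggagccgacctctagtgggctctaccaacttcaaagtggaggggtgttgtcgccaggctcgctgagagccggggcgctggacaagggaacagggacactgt

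CCGGAAG was present in 6 of the 10 promoters, those of Tfam, Polrmt, Slirp, Tufm, Gfm1 and Polg, and in 8.86% of the 32817 promoters of the same length. Slirp carried it 3 times. TGCGCA was present in 2, Polrmt and Tfb2m, against 7.75% of all promoters, and Polrmt was the 1 member that held both motifs, as did 1.28% of all promoters. Neither string was found in the windows of Tfb1m, Lrpprc and Tsfm. The motifs do not overlap each other in these windows, and a match describes letters, not binding.

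Depth was 3477624 to 5852716 reads in genes per library. The labels were borne out by the targeted genes: Prepl was at 33.6 to 36.5 CPM in its wild types and at 1.17 to 2.18 CPM in the knockouts, and Ndn and Snrpn fell in the PWS-IC deleted mice by 6.94 and 3.54 on the log2 scale. The neuronal markers Rbfox3, Snap25, Syt1, Tubb3 and Map2 were present in every group, with a summed level of 3357 to 3836 CPM over the 16 libraries. By Xist and Y-linked genes the Prepl wild types were 3 females and 1 male, replicate 4, the Prepl knockouts 4 males, and each PWS-IC group 2 of each sex. Reads outside genes made up 16.96% ± 1.76 of the tabled reads for Prepl wild types, 17.7% ± 1.24 for knockouts, 12.3% ± 1.03 for PWS-IC wild types and 19.1% ± 1.14 for deleted mice.

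Members differed widely in level. Several of them, Slirp and Tufm included, overlap or match other genes at their ends, as described below, and their levels are less certain for it. In the Prepl wild types the order from the top was Lrpprc, Slirp (80.7 ± 12.2 CPM), Tfam (47.6 ± 10.3 CPM), Gfm1 (16.8 ± 2.27 CPM), Tufm (15.7 ± 1.20 CPM), Polg (13.1 ± 2.99 CPM), Tsfm (12.8 ± 2.19 CPM), Polrmt (12.2 ± 1.61 CPM), Tfb2m (6.59 ± 1.12 CPM) and Tfb1m (3.96 ± 0.695 CPM). Lrpprc and Slirp overlapped in range, as did each neighbouring pair from Gfm1 to Polrmt, so the order within that middle group is not separated by the spread between libraries. The ranges of Slirp and Tfam, of Tfam and Gfm1, of Polrmt and Tfb2m and of Tfb2m and Tfb1m did not overlap. In the PWS-IC wild types Slirp came first at 87.1 ± 5.002 CPM, Tfam second at 43.1 ± 3.01 CPM and then Lrpprc, with the ranges of the last pair overlapping. Tfb1m, the methyltransferase that modifies the small mitochondrial rRNA, was the lowest in all 4 groups, with 6 to 25 reads per library.

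**Figure D1:**
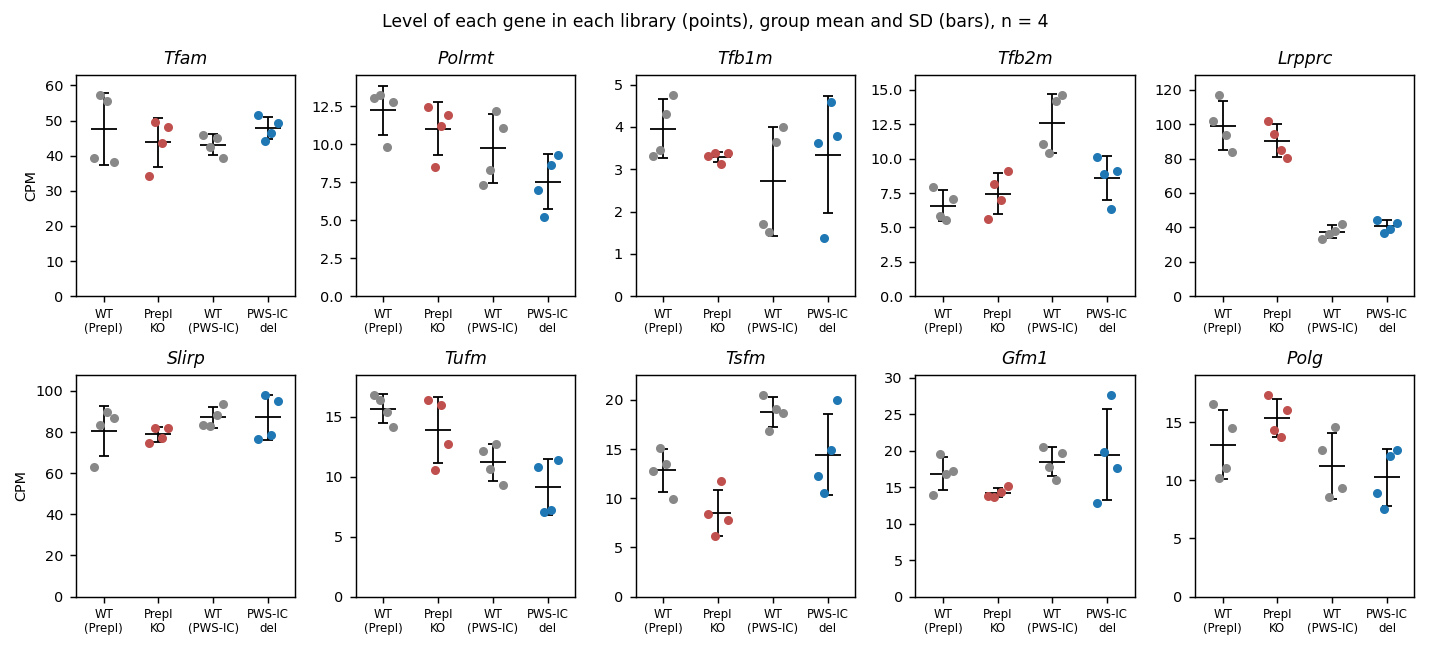
Level in CPM (vertical axis, from 0, scaled per gene) of each of the 10 genes in the 4 groups; points are libraries, long bars group means and capped bars the SD, n = 4. Lrpprc sits between 80.4 and 117 CPM in the 8 libraries of the Prepl comparison and between 33.1 and 44.5 CPM in the 8 of the PWS-IC comparison.

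Transcription factors of the organelle came first in the comparison of Prepl knockouts with their wild types. Tfam was at 39.3, 57.4, 55.5 and 38.1 CPM in wild-type replicates 1 to 4 and at 34.1, 49.6, 43.6 and 48.0 CPM in the knockouts. The groups overlapped over most of their range, and the log2 fold change was -0.09 ± 0.132 (SE; 95% interval -0.36 to 0.18; adjusted p = 0.889 by edgeR's quasi-likelihood test with Benjamini-Hochberg correction). Polrmt stood at -0.11 ± 0.175 (interval -0.47 to 0.25), Tfb2m at 0.22 ± 0.220 (-0.23 to 0.68) and Tfb1m at -0.23 ± 0.276 (-0.80 to 0.34). The intervals leave room for a fall of Tfb1m to 0.574 of its wild-type level but, for Tfam, for a fall to no less than 0.779 of it. Polg, the catalytic subunit of the DNA polymerase that replicates the mitochondrial genome, was at 0.28 ± 0.171 (-0.07 to 0.63).

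The pair that stabilises mitochondrial mRNA had the most reads of the 10 genes and the smallest errors in this comparison. In the Prepl wild types Lrpprc was at 102, 117, 93.5 and 83.8 CPM, and in the knockouts at 102, 94.0, 84.7 and 80.4 CPM. The knockouts lay inside or just under the wild-type range, and the log2 fold change was -0.10 ± 0.0940 (95% interval -0.29 to 0.10; adjusted p = 0.797). Slirp was at 62.8, 83.5, 89.7 and 86.7 CPM in the wild types and at 74.8, 81.7, 77.01 and 82.0 CPM in the knockouts. All 4 knockout values fell within the wild-type range, with a log2 fold change of 0.00 ± 0.0933 (-0.19 to 0.19).

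Of the translation elongation factors, Tsfm had the largest difference of the 10 genes in this comparison and Tufm and Gfm1 smaller ones. Tsfm, the exchange factor that reloads Tufm with GTP, was at 12.8, 15.2, 13.4 and 9.90 CPM in the wild types and at 8.38, 6.15, 11.7 and 7.74 CPM in the knockouts. The male wild type, replicate 4, lay among the knockouts, and the 3 female wild types lay above all of them. The log2 fold change of Tsfm was -0.55 ± 0.200 (95% interval -0.97 to -0.14), with an unadjusted p of 0.0107 and an adjusted p of 0.362 over all genes tested (edgeR's quasi-likelihood test). It was -0.18 with sex as a term (adjusted p = 0.999), a fit in which 1 male wild type is left to set against the 4 male knockouts. Tufm, which brings aminoacyl-tRNA to the ribosome, was at -0.13 ± 0.161 (-0.46 to 0.20), and Gfm1, which moves the ribosome along the mRNA, at -0.21 ± 0.147 (-0.51 to 0.09).

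Not 1 of the 10 members passed edgeR's quasi-likelihood test in the Prepl knockout, where 0.262% of the 13722 genes tested were called (0.189% higher, 0.0729% lower), and 1 member, Tsfm, had an unadjusted p under 0.05 (9.43% of all genes had). DESeq2 and limma voom also called 0. The median log2 fold change of the 10 was -0.10, with 8 below 0, against 0.00 over all genes tested, and 0 of the 10 had groups that did not overlap (5.69% of all genes, 1.60% with the knockouts higher and 4.09% lower).

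The 2 mitochondrial rRNAs were at 0.04 and 0.06 on the log2 scale in the Prepl knockout, neither called. Of the 13 mRNAs transcribed from mitochondrial DNA, 6 were called higher and none lower there, with a median log2 fold change of 0.29. Of all genes tested 0.189% were called higher. With sex as a term, which leaves 1 male wild type beside the 4 male knockouts, 1 of the 13 was called higher and the median was 0.39. Their difference from the 10 regulators, which have far fewer reads, was not tested. As a share of reads in genes they made up 6.12%, 6.01%, 5.97% and 5.85% in the wild types and 6.67%, 8.14%, 7.82% and 8.32% in the knockouts. These ranges do not overlap. The summed level of the 10 regulators was 288 to 342 CPM in the wild types and 282 to 290 CPM in the knockouts. Its ranges overlapped through knockout replicate 2 alone, at 290 CPM, and the other knockouts lay below every wild type. Of the cell type markers 1 was called in this comparison, the globin gene Hba-a2, which was lower in the knockouts, where the summed blood markers were at 628 to 833 CPM against 660 to 1145 CPM; its part in these values was not tested.

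In the PWS-IC deleted brain the transcription factors diverged in sign, and none passed the test. Tfam was at 46.0, 42.4, 45.0 and 39.2 CPM in the wild types and at 51.5, 44.2, 46.6 and 49.2 CPM in the deleted mice. Their ranges overlapped through deleted replicate 2, with a log2 fold change of 0.16 ± 0.108 (95% interval -0.07 to 0.38; edgeR's quasi-likelihood test, adjusted p = 0.480). Polrmt was at -0.35 ± 0.233 (-0.84 to 0.14) and Tfb1m at 0.30 ± 0.400 (-0.53 to 1.14).

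Tfb2m had the lowest p of the 10 there. PWS-IC wild types had 11.1, 10.4, 14.2 and 14.7 CPM of it, and the deleted mice had 10.1, 8.89, 6.33 and 9.14 CPM. Every deleted library lay below every wild type, by a narrow margin at deleted replicate 1 and wild-type replicate 2. The log2 fold change was -0.52 ± 0.204 (95% interval -0.95 to -0.10), with an unadjusted p of 0.0183 and an adjusted p of 0.164 over all genes tested (edgeR's quasi-likelihood test). Tfb2m was thus the 1 member of 10 whose groups did not overlap, where 11.8% of the 13636 genes tested did not (6.70% with the deleted mice higher, 5.06% lower). In the same libraries the share of reads outside genes was higher in every deleted library (17.7% to 20.1%) than in every wild type (11.4% to 13.7%), and all 5 meningeal fibroblast markers fell, from a summed 377 to 630 CPM to 291 to 314 CPM. Of the other markers 3 of 5 for choroid plexus fell (summed 1395 to 2153 against 395 to 1698 CPM), as did 4 of 5 for blood (1796 to 3970 against 1203 to 1629 CPM). Of the glial markers 1 of 5 for microglia fell (46.0 to 71.7 against 37.8 to 60.7 CPM), as did 1 of 4 tested for oligodendrocytes (93.9 to 102 against 83.2 to 93.5 CPM). Of all genes tested 1.55% were called lower. No neuronal, astrocyte or endothelial marker was called. The oligodendrocyte marker Mog was at 0 in every library of both PWS-IC groups and was not tested there. No marker on these lists was at 0 in all 16 libraries. The part of these markers and of the reads outside genes in the Tfb2m values was not tested. In bulk tissue, fewer cells of a type and less RNA per cell cannot be told apart.

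Lrpprc and Slirp did not separate the PWS-IC groups. Lrpprc was at 33.1, 36.3, 37.7 and 42.3 CPM in the wild types and at 44.5, 36.7, 38.8 and 42.3 CPM in the deleted mice. The log2 fold change was 0.13 ± 0.117 (95% interval -0.12 to 0.37), and the highest deleted library lay just above the wild-type range. Slirp was at 83.6, 82.9, 88.5 and 93.7 CPM against 76.8, 98.0, 78.8 and 95.1 CPM. Its deleted libraries bracketed the wild types on both sides, at 0.01 ± 0.0979 (-0.19 to 0.22).

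The elongation factors again gave Tsfm the largest difference. PWS-IC wild types had 20.5, 16.8, 19.1 and 18.7 CPM of it, and the deleted mice had 12.3, 10.5, 15.0 and 20.01 CPM. Deleted replicates 1 to 3 lay below all wild types and replicate 4 near the top of their range. The log2 fold change was -0.36 ± 0.184 (95% interval -0.74 to 0.02; edgeR's quasi-likelihood test, adjusted p = 0.310). Over the 17 alternatives it ranged from -0.57 to -0.24, and none called Tsfm. The lowest of these, -0.57, came without deleted replicate 4 (edgeR's quasi-likelihood test, adjusted p = 0.0903). Tufm was at -0.27 ± 0.212 (-0.72 to 0.17), Gfm1 at 0.06 ± 0.189 (-0.33 to 0.46) and Polg at -0.13 ± 0.220 (-0.59 to 0.34). Gfm1 spread from 12.8 to 27.6 CPM among the deleted libraries, against 16.02 to 20.5 CPM among the wild types.

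Of the 10 members edgeR's quasi-likelihood test called 0 in the PWS-IC deleted brain, where 4.51% of all genes were called (2.96% higher, 1.55% lower), and 1 had an unadjusted p under 0.05 (18.2% of all genes had). DESeq2 and limma voom called 0 as well. Here 10 of the 13 mitochondrially encoded mRNAs were called lower and none higher (median -0.45). The 1 above 0 was mt-Nd6, at 0.49 and not called. It had 15.3 ± 2.46 CPM in the wild types and 21.4 ± 3.09 CPM in the deleted mice. The rRNAs mt-Rnr1 and mt-Rnr2 fell by 0.40 and 0.29 on the log2 scale. The median of the 10 regulators was -0.06, with 5 on each side of 0, against -0.01 over all genes.

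**Figure D2:**
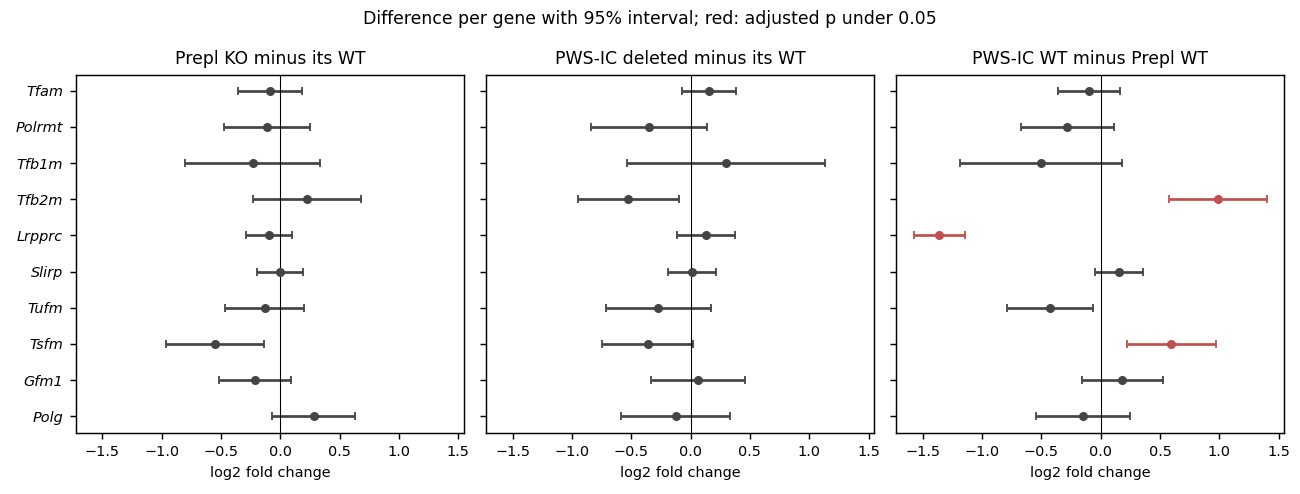
Log2 fold change (horizontal axis) of each gene with its 95% interval from edgeR, for Prepl knockout minus its wild types, PWS-IC deleted minus its wild types, and PWS-IC wild types minus Prepl wild types; red marks an adjusted p under 0.05. Red points appear in the third panel alone, for Lrpprc at -1.36, Tfb2m at 0.99 and Tsfm at 0.60.

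The difference between the mutant effects was tested directly over all 16 libraries, as the PWS-IC effect minus the Prepl effect. EdgeR's quasi-likelihood test called 0 of the 10 members, where 0.778% of the 14392 genes tested were called, and 1 had an unadjusted p under 0.05, as did 11.7% of all genes. That was Tfb2m, which stood above 0 in one model and below it in the other, with a difference of -0.74 ± 0.293 (95% interval -1.34 to -0.15; unadjusted p = 0.0165, adjusted p = 0.291). Tsfm, below 0 in both, differed by 0.20 ± 0.274 (-0.36 to 0.76). Tfam differed by 0.25 ± 0.181 (-0.12 to 0.62).

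Between the wild-type groups 3 of the 10 members were called, 2 higher and 1 lower in the PWS-IC wild types, where 24.4% of all genes tested were called, so the share is near the background. Lrpprc, the RNA-binding partner of Slirp, was lower by 1.36 on the log2 scale (log2 fold change -1.36 ± 0.106, or 0.390 of the level in the Prepl wild types, 95% interval 0.335 to 0.453; edgeR's quasi-likelihood test, adjusted p = 1.07e-10). Tfb2m, at 7.96, 5.86, 5.52 and 7.05 CPM in the 4 Prepl wild types, lay below all 4 PWS-IC wild types given above. It was higher in the latter by 0.99 ± 0.202 (1.98-fold, 95% interval 1.49 to 2.64, adjusted p = 0.000562). Tsfm was higher by 0.60 ± 0.185 (1.51-fold, 95% interval 1.16 to 1.96, adjusted p = 0.0180). The call of Tsfm was lost without Prepl wild-type replicate 4 (0.49, adjusted p = 0.0709) and without PWS-IC wild-type replicate 1 (0.54, adjusted p = 0.0565). These contrasts share wild-type libraries with the comparisons above. For Tfb2m and Tsfm, the PWS-IC wild types were the highest of the 4 groups, at 12.6 ± 2.15 and 18.8 ± 1.51 CPM, and the deleted means of 8.62 ± 1.61 and 14.4 ± 4.15 CPM lay between them and the Prepl wild types at 6.59 ± 1.12 and 12.8 ± 2.19 CPM.

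Tufm did not pass between the wild types, at -0.43 ± 0.178 (95% interval -0.79 to -0.07, adjusted p = 0.0771), although its 4 Prepl wild types (14.1 to 16.8 CPM) all lay above its 4 PWS-IC wild types (9.33 to 12.7 CPM). With Lrpprc, Tfb2m and Tsfm, that made 4 of 10 members whose wild-type groups did not overlap, against 24.3% of all genes tested (9.70% higher in the PWS-IC wild types, 14.6% lower). The 6 others, Tfam, Polrmt, Tfb1m, Slirp, Gfm1 and Polg, overlapped, with log2 differences from -0.50 (Tfb1m, 95% interval -1.19 to 0.18) to 0.18 (Gfm1, -0.16 to 0.52).

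Lrpprc was the 1 member that separated all 8 libraries of the Prepl comparison from all 8 of the PWS-IC comparison, whatever the genotype, as did 8.83% of all genes tested (3.97% higher in the PWS-IC set, 4.86% lower). Slirp overlapped between the sets, and the ratio of their reads differed between the sets. The log2 ratio of Lrpprc to Slirp averaged 0.30 ± 0.353 (SD, n = 4) among Prepl wild types and 0.19 ± 0.197 among knockouts. Among PWS-IC wild types it averaged -1.23 ± 0.0796, and among deleted mice -1.10 ± 0.265. Lrpprc thus had 0.967 to 1.62 reads for each Slirp read in the first set and 0.374 to 0.580 in the second. The knockouts (0.981 to 1.36) lay within the range of their wild types, and the deleted mice (0.374 to 0.580) reached beyond theirs (0.397 to 0.451) on both sides. No test was made of this ratio. The end of Slirp overlaps Snw1, so its reads cannot be assigned with certainty, as described below.

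**Figure D3:**
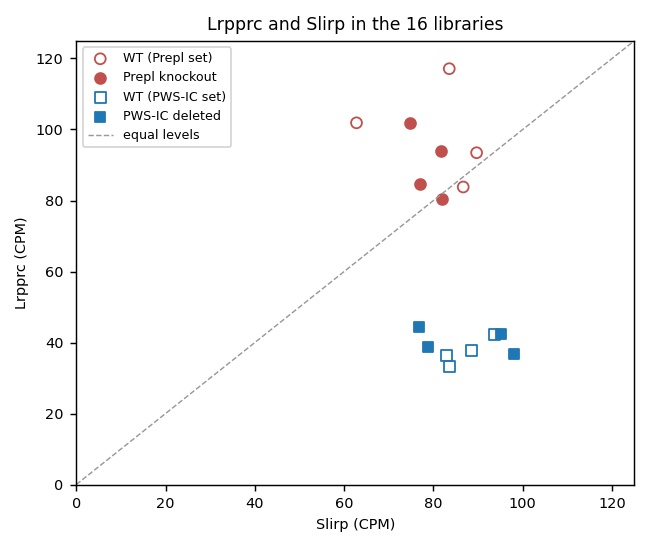
Lrpprc (vertical axis) against Slirp (horizontal axis) in CPM, 1 point per library; open symbols are wild types, filled symbols mutants, circles the Prepl comparison and squares the PWS-IC comparison, and the dashed line marks equal levels. The squares lie between 33.1 and 44.5 CPM of Lrpprc, the circles between 80.4 and 117 CPM, over similar levels of Slirp.

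Lrpprc lies on chromosome 17 at 84705247 to 84790789 (GRCm38, minus strand), 272680 bases before Prepl. In the knockout comparison none of the 14 tested genes of a list around Prepl, Lrpprc included, passed edgeR's quasi-likelihood test. Between the wild types 5 of the 14 were lower in the PWS-IC set and 1 higher (12.1% and 12.3% of all genes). The nearest tested genes on either side of Lrpprc were Dync2li1 and Ppm1b; Abcg5 and Abcg8, which lie between Dync2li1 and Lrpprc, had too few reads to be tested. Dync2li1 was at -0.26 ± 0.167 and Ppm1b at 0.04 ± 0.0946, neither called. Farther away Thada was at -0.96 ± 0.247, Srbd1 at -0.55 ± 0.166, the homeobox gene Six3 at -0.52 ± 0.0960 and the kinase gene Prkce at -0.36 ± 0.0797, while Cript was at 0.43 ± 0.109. Lrpprc had the largest difference of the 14 tested genes on the list.

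**Figure D4:**
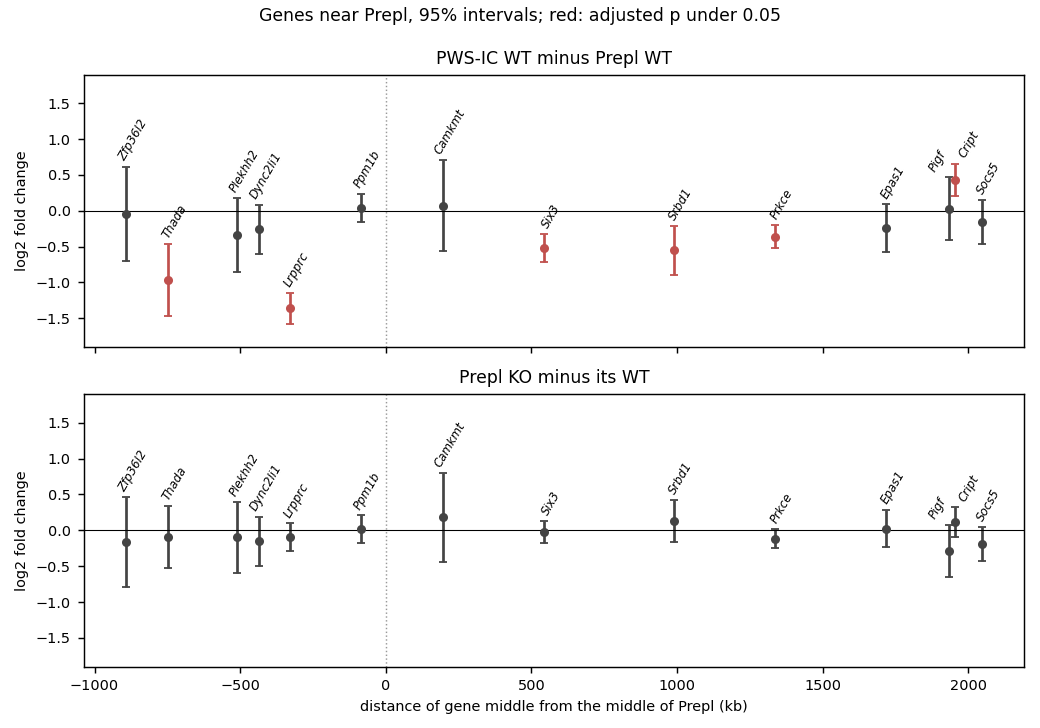
Log2 fold change (vertical axis) with 95% interval for the 14 tested genes near Prepl, against the distance of the middle of each gene from the middle of Prepl in kb; the upper panel is PWS-IC wild types minus Prepl wild types, the lower Prepl knockouts minus their wild types, and red marks an adjusted p under 0.05. Lrpprc at -1.36 is the lowest point of the upper panel, and the lower panel has no red point.

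The wild-type groups differ in more than these genes, and the labels give no strain, litter or run that could be used as a term, so the origin of the mice and their handling cannot be told apart here. All 5 blood markers were higher in the PWS-IC wild types (summed 1796 to 3970 CPM against 660 to 1145 CPM). Of the other markers, 1 of 4 tested for oligodendrocytes was lower (93.9 to 102 against 126 to 199.8 CPM), 1 of 4 for endothelium was lower (55.5 to 60.5 against 62.6 to 79.3 CPM) and 1 of 5 for choroid plexus was higher (1395 to 2153 against 904 to 1446 CPM). For astrocytes 1 of 5 was higher and 2 lower (755 to 821 against 692 to 907 CPM), and for neurons 1 of 5 was higher and 1 lower (3598 to 3791 against 3603 to 3787 CPM). None of the 5 microglia or 5 meningeal fibroblast markers was called. Of all genes tested 24.4% were called (12.3% higher, 12.1% lower), and whether any marker list departs from that share was not tested. Reads outside genes were fewer in the PWS-IC wild types (11.4% to 13.7%) than in the Prepl wild types (15.98% to 19.6%). The part of these in the Lrpprc, Tfb2m and Tsfm values was not tested. With sex as a term Lrpprc, Tfb2m and Tsfm were at -1.32, 0.99 and 0.68 and all 3 remained called.

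The genes whose levels followed Lrpprc most closely over the 16 libraries were Cwc22, a splicing factor gene (Pearson r = 0.984), Gnb4, a G protein beta subunit gene (0.983), and Smpd3, a sphingomyelinase gene (0.979). Each of them, like Lrpprc, was higher in all 8 libraries of the Prepl comparison; Cwc22 was at 221 to 468 CPM there and at 8.54 to 22.6 CPM in the other 8. For Tufm the closest were Sned1 (0.934), Dusp3 (0.911) and Hip1 (0.909). For Tfam, which did not differ between the sets, likeness was weaker, with Gm12174 first at 0.771. These correlations of log2(CPM + 1), taken over 14391 genes, describe the libraries, which come from 2 sets of mice.

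Other nuclear genes of mitochondrial gene expression gave few calls in the mutants, where few of all genes were called (0.262% in the Prepl knockout, 4.51% in the PWS-IC deleted brain). Of 17 tested genes of mitochondrial DNA maintenance, 5 of transcription elongation and termination and 23 other translation factors, edgeR's quasi-likelihood test called none in either model, and the same held for RNA processing and stability, with 33 tested in the Prepl and 32 in the PWS-IC comparison. The members of these 4 lists with an unadjusted p under 0.05 numbered 4, 0, 2 and 2 in the Prepl knockout and 3, 0, 1 and 2 in the PWS-IC deleted brain, in the order maintenance, elongation, translation and processing. Their medians lay between -0.01 and 0.06 in the first and between -0.04 and 0.08 in the second. Of 15 tested nuclear transcription factors and coactivators of mitochondrial genes none was called in the Prepl knockout (1 at an unadjusted p under 0.05). In the PWS-IC deleted brain 1 fell and none rose, where 1.55% of all genes fell: Hcfc1, a chromatin-bound cofactor, went from 77.6 ± 8.001 to 57.3 ± 5.75 CPM (log2 -0.43 ± 0.104, adjusted p = 0.02001). The list's median there was -0.16. Of 13 genes of mitochondrial content none was called in the Prepl knockout (2 at an unadjusted p under 0.05). In the PWS-IC deleted brain 1, the chaperonin gene Hspe1, was higher at 0.65, where 2.96% of all genes were called higher.

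**Figure D5:**
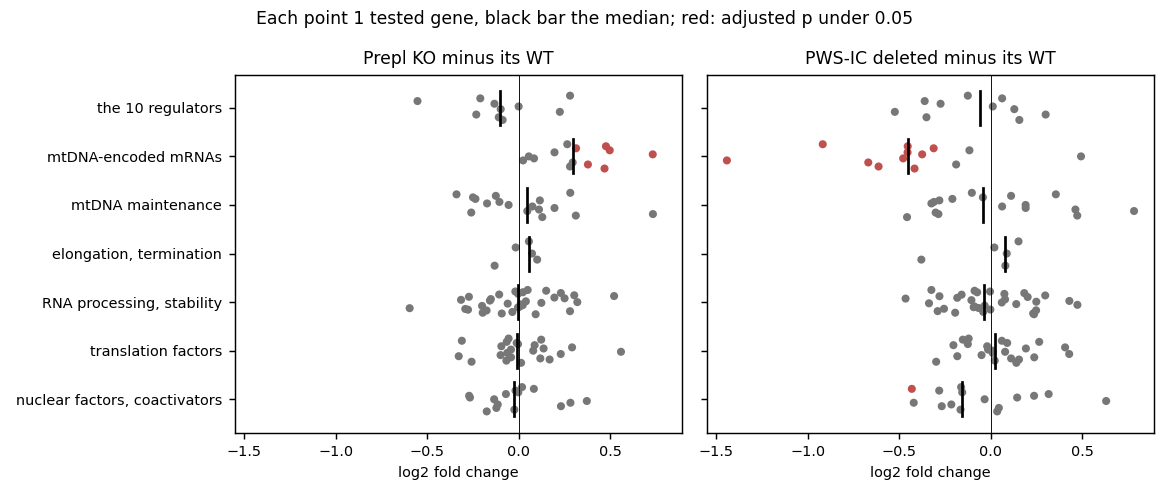
Log2 fold change (horizontal axis) of each tested gene in the 10 regulators, the 13 mRNAs encoded in mitochondrial DNA (mtDNA) and 5 lists of related nuclear genes, for each mutant against its own wild types; black bars are medians and red points have an adjusted p under 0.05. Red points lie in the row of mitochondrially encoded mRNAs, to the right in the Prepl knockout (6 of 13) and to the left in the PWS-IC deleted brain (10 of 13), apart from Hcfc1 at -0.43 among the nuclear factors of the second panel.

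Between the wild-type groups, where 24.4% of all genes were called, the 4 lists of maintenance, elongation, translation and processing and the list of factors and coactivators each held a smaller share of calls, while 4 of the 13 genes of mitochondrial content were called, 2 in each direction. Among coactivators Ppargc1a, which drives mitochondrial biogenesis, was lower in the PWS-IC wild types at -0.42 ± 0.102 (79.1 ± 12.8 against 56.9 ± 0.585 CPM) and its relative Ppargc1b at -0.73 ± 0.207 (14.6 ± 2.87 against 8.53 ± 2.25 CPM). Among translation factors C1qbp was higher at 0.56 ± 0.0861 and Mettl17 at 0.43 ± 0.151, while Gfm2, a ribosome recycling factor, was lower at -0.50 ± 0.168 and 2810006K23Rik at -0.66 ± 0.193. Rnaseh1, which removes RNA from RNA-DNA hybrids, was higher at 0.77 ± 0.263, and the exonuclease gene Rexo2 lower at -0.63 ± 0.117. Of the 4 lists above, maintenance had 2 calls, elongation none, translation 4 and processing 5 (3 higher and 2 lower), and 2 of the 15 factors and coactivators were called, both lower. Of the mitochondrially encoded mRNAs 6 were higher and 4 lower. The calls named here had edgeR adjusted p from 1.83e-05 (C1qbp) to 0.0355 (Mettl17).

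Some counts cannot be assigned with certainty. The last 600 bases of a Slirp transcript overlap Snw1 on the opposite strand over their whole length. Those of Tsfm and Tfb1m overlap Avil and Tiam2 for 169 and 142 bases. Over the 16 libraries Snw1 had 10179 reads against 6852 for Slirp, and Tiam2 had 1671 against 271 for Tfb1m. Avil had 40 reads against 1130 for Tsfm. No source used here gives the strand setting of the counting. The end of Tufm matches the processed pseudogene Gm9755 over 364 bases at 100% identity. Gm9755 had 181 reads over the 16 libraries against 1035 for Tufm. The end of Tfb2m matches Ifi203 over 104 bases at 95.2% identity, with 429 reads for Ifi203 against 724 for Tfb2m. The end of Lrpprc matches the pseudogenes Gm28503 over 147 bases at 95.2% and Gm48031 over 144 bases at 95.8%; Gm28503 had 0 reads against 5528 for Lrpprc, and no count of Gm48031 was used here.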

How the data were processed

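Lexogen QuantSeq libraries, which read the poly(A) end of transcripts, were made from total RNA of 16 mouse brain samples, per the labels' protocols. The deposited values are counts, 1 whole number of reads per gene symbol and library. HISAT2, HTSeq and mm10 appear in the submitters' processing notes; their versions, the annotation and the strand setting were not given in the sources used here. The 5 closing lines of each table are totals, left out of all library sizes and fits: reads outside genes (11.4% to 20.1% of tabled reads), not aligned (10.9% to 13.8%), aligned to several places (25.2% to 30.9%), ambiguous (0.390% to 0.479%) and of low quality (0%).

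CPM were computed from the deposited counts. Genes were tested with edgeR 4.0.16 under R 4.3.3: filterByExpr (minimum count 10, minimum total 15), TMM factors, a quasi-likelihood fit and F-test, with Benjamini-Hochberg adjustment over all genes tested and a threshold of 0.05. Standard errors are the absolute log2 fold change over the square root of F. The 8 libraries of a model were fitted alone; the wild-type contrast and the difference of effects on all 16. The fit was tested on simulated data with changes larger than any estimated for the 10 genes in either mutant. That test therefore does not show how well smaller changes would be found. Alternatives were RLE and upper-quartile factors, no filter, DESeq2 1.42.0, limma 3.58.1 voom, a replicate block, a sex term, 1 fit of 16 libraries, leaving out mitochondrially encoded genes, and leaving out each library. Replicates differed by more than sampling noise (chi-square per degree of freedom at least 2.52 for each pair in a group). Members and lists were chosen with earlier results of these data known. Named genes are the 10 members, Prepl, Ndn and Snrpn, genes next to Lrpprc, and the 3 genes most like Tfam, Lrpprc and Tufm. Of the called members of the lists only some are named, so the names do not stand for all calls. The Lrpprc promoter was added after values were seen, as was the division of libraries into 8 and 8. Coordinates of genes are from GENCODE M21 (GRCm38). Promoter windows follow the RefSeq starts, which can differ from those of GENCODE. The last bases of the Lrpprc window were found in no protein-coding GENCODE transcript of Lrpprc, while those of each other member were found in its own. For Tfam, on the minus strand, GENCODE puts the start at 71238280, inside the bases shown before the RefSeq start.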

Additional observations from a re-analysis of the deposited data

Results flagged for a closer look

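Among the 40 sets of 4 values (10 genes in 4 groups) 1 library stood apart from the others of its group by Dixon's criterion, which chance meets in about 1 in 20 groups. It was Polrmt in replicate 3 of the Prepl wild types, at 9.83 CPM against 12.8 to 13.3 CPM in the other 3, a gap of 0.854 of the range.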

How the results depend on the processing

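No member was called in either mutant, or for the difference of effects, under any alternative run, and none of the values that changed sign passed a threshold. In the Prepl knockout Slirp moved across 0 to 0.00034 with no filter, 0.010 with the replicate block, 0.000465 with DESeq2 and 0.0064 with limma voom. With a sex term Tfam was at 0.23, Lrpprc at 0.14 and Tufm at 0.010 there, and the Tsfm difference of effects at -0.058. With no filter Slirp was at -0.0089 in the PWS-IC deletion and -0.013 for the difference. Leaving out 1 library at a time, Tfam ranged from -0.18 to 0.019 and Slirp from -0.097 to 0.053 in the Prepl knockout, and Slirp from -0.056 to 0.067, Gfm1 from -0.12 to 0.21 and Polg from -0.24 to 0.011 in the PWS-IC deletion. For the difference Slirp ranged from -0.054 to 0.11 and Tsfm from -0.016 to 0.40. The cause was not tested. Between the wild types, leaving out 1 library gave 2 to 3 called members.

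Counts over all genes moved more. The 6 mitochondrially encoded mRNAs called higher in the Prepl knockout became 1 with a sex term and 4 to 7 without 1 library, and the 10 called lower in the PWS-IC deletion were 9 to 10 without 1 library, alternatives chosen after seeing the data. The 36 calls of the Prepl knockout became 156 with no filter, 6 with a sex term, 18 in 1 fit of 16 libraries and 12 to 103 without 1 library. The 615 of the PWS-IC deletion became 945 with no filter, 996 with the replicate block, 1120 with a sex term, 999 in 1 fit of 16 and 362 to 653 without 1 library. The 112 of the difference became 222 with no filter, 236 with a sex term and 67 to 134 without 1 library. Replicate numbers were not taken as pairing samples: deviations of same-numbered samples correlated at -0.10 to 0.08 in the Prepl model and 0.05 to 0.38 in the PWS-IC model, where numbers coincide with sex. Tfb1m, with 6 to 25 reads per library, had the widest intervals of the 10 genes.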
